A study of Cervus nippon with 40 samples.

Results

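The miRNAs of 10 organs were compared between adult (5 years) and aged (10 years) male Sika Deer (Cervus nippon, Shuangyang breed). The organs were brain, adrenal, testes, antler, spleen, skeletal muscle, heart, liver, lung and kidney. All libraries labelled adult or aged entered the comparison, which gave 20 libraries of the 40 in the series, or 10 adult-aged pairs. For every small RNA library, equal RNA of 3 deer went into 1 pool, and the organs of a stage came from the same 3 deer. Each stage was therefore 1 pool of animals, and a difference between aged and adult cannot be told apart from a difference between these pools. The p-values below measure the spread over organs, not the spread between animals. No treatment or genotype separated the groups, and all animals were male. In these whole organs, fewer cells of a type and less miRNA per cell cannot be told apart.

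A miRNA is a short RNA that guides an Argonaute protein to messenger RNAs and lowers their output. Its seed, a short stretch near the 5′ end, largely sets which messengers are bound, and miRNAs with the same seed form a family. Many miRNAs mark an organ: miR-1 and miR-133a are made in striated muscle, miR-124a in neurons, miR-192 in liver and kidney epithelium, and miR-142 and miR-150 in blood cells. The let-7 family, which represses LIN28, RAS and HMGA2 messengers, accumulates as cells differentiate.

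Values are reads per 1000000 miRNA reads of a library (RPM). RPM levels are given unscaled, and so are lowered in all other miRNAs of a library that 1 miRNA fills, such as miR-1 in skeletal muscle. Differences, and counts of organs higher or lower, are after TMM scaling over the 20 libraries unless another scaling is named. Cattle miRNA names took at least 99.65% of the reads of each library. Of 336 such names in the series, 308 had a read in the 20 libraries and 108 had at least 10 reads in at least 4 of them, the minimum for a test. Adult libraries held 97018 to 6497783 reads and aged libraries 41866 to 6024699, and the aged library was the deeper of the pair in 6 of 10 organs. One read stood for 0.154 to 23.9 RPM. Organ markers were checked first. In RPM, miR-1 was highest in skeletal muscle, miR-208b in heart, miR-124a in brain, miR-192 in liver, miR-196a in kidney, miR-7 in adrenal and miR-199a-5p in antler at both stages. Other markers were not highest in their organ at both stages. miR-142-5p ranked 6 of the 10 adult organs in spleen (6.62 RPM, beside 126 RPM in antler), miR-150 ranked 5 in aged spleen, miR-126-3p of endothelium ranked 4 in adult lung, and miR-140 of cartilage ranked 4 in adult and 2 in aged antler. The liver marker miR-122 and the blood cell markers miR-223 and miR-155 were not listed in any of the 20 libraries, and the testes marker miR-202 had 0 reads in them.

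The aged spleen stood apart and is treated separately below. Pearson's r between the adult and the aged library, over log2 levels of 126 miRNAs, was 0.872 in spleen and 0.946 to 0.984 in the other 9 organs. These r values share organ and dominant miRNAs and are a description. The tests were therefore run with spleen (10 pairs) and without it (9 pairs).

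Over 10 organs no miRNA passed the test between adult and aged deer. With limma on log2 levels, organ as a block and the limits of an adjusted p under 0.01 and a log2 difference over 1, 0 of 108 miRNAs were called (0%). At an unadjusted p under 0.05 there were 11 miRNAs, against 16 with edgeR and 22 with DESeq2 on the recovered reads, and both tools also called 0. At an adjusted p under 0.05 with no limit on size, limma and edgeR gave 0 and DESeq2 gave 7 (let-7d, miR-24-3p and miR-95 higher, and miR-145, miR-2284x, miR-30f and miR-423-5p lower). The fitted differences were positive for 54 miRNAs and negative for 54, with a median of 0.00034 on the log2 scale. When libraries were scaled to total reads in place of TMM, 72 were positive and 36 negative, and the median of all miRNAs moved to 0.16.

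Without spleen, 1 of 107 miRNAs was called (0.935%). This was let-7d, which rose by 1.02 on the log2 scale (SE 0.19, adjusted p = 0.00646 by limma). At an adjusted p under 0.05 with no limit on size there were 6 of 107 miRNAs (5.61%). Higher in aged deer were let-7d and let-7a-5p. Lower were miR-30f, miR-145, miR-2284x and miR-1. The lower names depended on the scaling and tool. Under total reads, and with miR-1 left out of the totals, the miRNAs at that limit were let-7a-5p, let-7c and let-7d, with 3 higher and 0 lower. edgeR gave 2 (let-7d and miR-30f) and DESeq2 gave 14, of which 7 were higher. Leaving out any further organ ended the call of let-7d, with adjusted p from 0.0111 to 0.0389 and log2 differences from 0.88 to 1.09.

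In unscaled RPM, let-7d was lowest in skeletal muscle and highest in adrenal at both stages. After scaling, adult levels were lowest in antler (50.4) and highest in spleen (296), and aged levels were lowest in spleen (110) and highest in brain (484). In adult libraries it ran from 5.85 RPM (skeletal muscle) through a median of 204 RPM to 361 RPM (adrenal). In aged libraries it ran from 16.6 RPM through 382 RPM to 668 RPM in the same organs. The 2 groups overlapped across organs, but within an organ the aged library was the higher one in 9 of 10 pairs. Spleen was the exception, at 347 RPM in adult and 144 RPM in aged deer. The log2 difference was 0.38 in liver, 0.76 to 1.56 in adrenal, antler, brain, kidney, lung, skeletal muscle and testes, and 1.83 in heart, against -1.43 in spleen. Over 10 organs the mean difference was 0.80 (SE 0.28, adjusted p = 0.320 by limma). The exact two-sided sign-flip permutation test over the 10 pairs gave an unadjusted p = 0.0273. That test gave smaller unadjusted p for other miRNAs, such as 0.00586 for miR-151-5p and 0.00781 for miR-22-3p, and 0.0625 for let-7a-5p. It used the same differences as the fit and is no separate support. The least precise pair was testes, with 16 and 15 reads.

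let-7a-5p, the founding sequence of the family, was more abundant. It ran from 129 RPM through 6724 RPM to 9451 RPM in adult libraries and from 237 RPM through 11405 RPM to 15388 RPM in aged libraries. The aged library was the higher in 9 of 10 organs, and the differences ran from 0.19 (skeletal muscle) to 1.90 (heart), with -1.39 in spleen. The mean difference was 0.62 (SE 0.26, adjusted p = 0.337 by limma) with spleen and 0.82 (SE 0.20, adjusted p = 0.0374) without it. let-7c was likewise higher in 9 of 10 organs, at a mean of 0.43 (SE 0.28) with spleen and 0.65 (SE 0.19, adjusted p = 0.0611) without it, and did not pass the test.

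For let-7b, the most abundant member, the direction depended on the scaling. Its median was 203154 RPM in adult and 195341 RPM in aged libraries. It was higher in 4 of 10 organs after TMM scaling or DESeq2 size factors, in 6 under TMM over 40 libraries and in 8 under total reads. Its mean difference was -0.13 (SE 0.33) with spleen and 0.12 (SE 0.22) without it. The name miR-3596 carried the same reads as let-7b in every library. let-7i differed by 0.29 (SE 0.25), or 0.11 (SE 0.22) without spleen, and was higher in 6 of 10 organs, while miR-98, higher in 9 of 10, differed by 0.12 (SE 0.52), since it had 7 reads in adult and 0 in aged testes. Of the 7 tested names of the family, 5 were positive and 2 negative, beside 54 and 54 of all 108, and none was called. The 2 negative names, let-7b and miR-3596, were the same reads. Under total reads all 7 were positive, beside 72 of all 108, and under TMM over 40 libraries all 7, beside 71. Without spleen 6 were positive and 1 negative. let-7g had no read in the 20 libraries. The members differ by few bases, so the assignment of reads among them is uncertain.

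**Figure D1:**
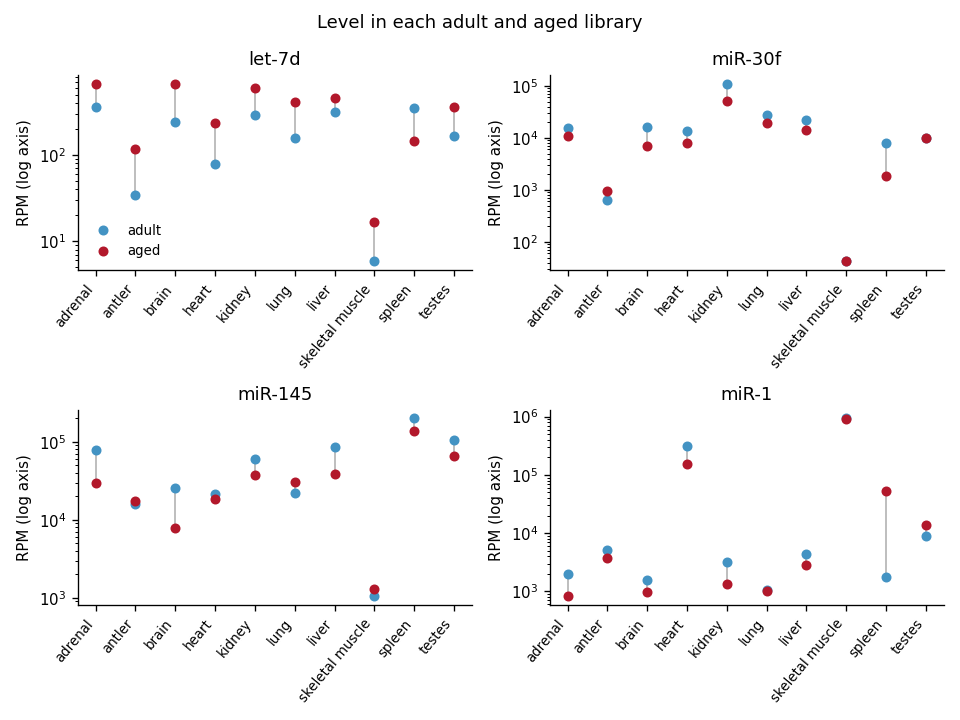
RPM (log axis) of let-7d, miR-30f, miR-145 and miR-1 in the adult (blue) and aged (red) library of each of the 10 organs on the horizontal axis, 1 library a point, with a grey line joining a pair. let-7d is higher in the aged library in 9 organs and lower in spleen (347 and 144 RPM), and miR-1 in spleen is 1782 RPM in adult and 52057 RPM in aged deer.

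Because the sign of a small difference depends on how libraries are scaled, let-7 members were also set against let-7b of the same library. Such a ratio needs no scaling. It was chosen after the values were seen and is given as a description. Per 1000 let-7b reads, let-7d ran from 0.524 through 1.30 to 5.49 reads in adult organs and from 1.17 through 2.50 to 13.6 in aged organs. The aged ratio was the higher in 10 of 10 organs, spleen included, by 1.12 times in heart to 2.47 times in skeletal muscle, with a median of 2.23 times. In spleen it went from 1.20 to 2.79 reads per 1000 let-7b reads, or 2.32 times. There both miRNAs fell after scaling, let-7b (-2.65) by more than let-7d (-1.43). Counting error alone gave a 95% interval above 1 in 9 of 10 organs, heart being the other.

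The ratio of let-7a-5p to let-7b was also higher in all 10 aged libraries. It was 14.1 to 121 reads per 1000 let-7b reads in adult organs (median 31.7) and 29.8 to 194 in aged organs (median 61.6). The aged over adult ratio ran from 1.13 in liver to 2.38 in spleen. For let-7c it ran from 1.02 in heart to 1.99 in antler, again above 1 in 10 of 10 organs. In spleen the scaled levels of let-7a-5p (-1.39) and let-7c (-1.79) also fell, by less than that of let-7b. let-7i went up in 6 organs and down in 4, with a value of 19.9 times in spleen. Of the 72 other miRNAs with reads in all 20 libraries, these 3 (4.17%) moved in 1 direction against let-7b in 10 of 10 organs. Among all 2628 pairs of such miRNAs, 2.44% of ratios did so.

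**Figure D2:**
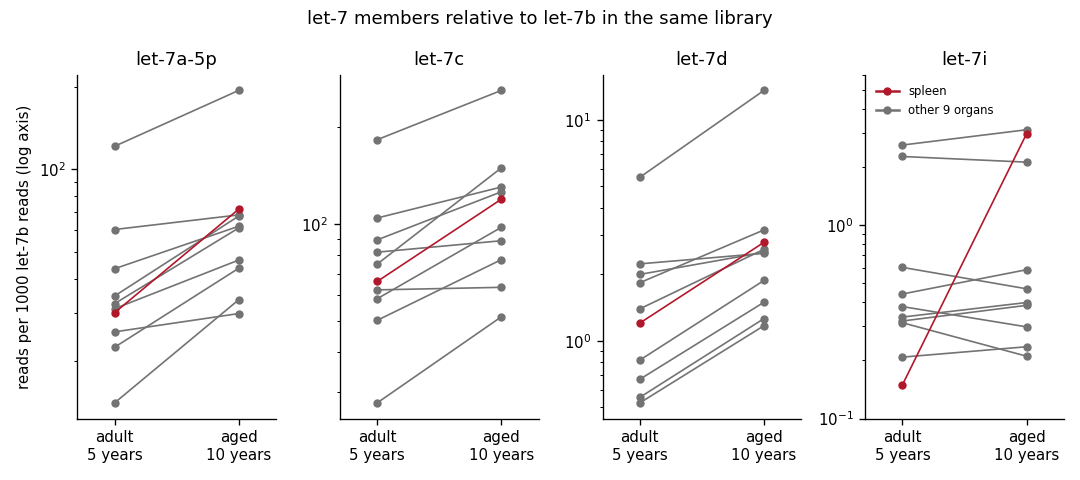
Reads of let-7a-5p, let-7c, let-7d and let-7i per 1000 let-7b reads (log axis) in the adult and aged library, 1 line for each of the 10 organs and spleen in red. All 10 lines rise for let-7a-5p, let-7c and let-7d, by medians of 1.74, 1.49 and 2.23 times, while let-7i rises in 6 organs and falls in 4.

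The younger stages give a scale for these ratios. The median let-7d ratio was 1.77 in juvenile and 2.30 in adolescence deer, beside 1.30 in adult and 2.50 in aged deer. For let-7a-5p the medians were 64.4, 56.8, 31.7 and 61.6 at the 4 stages in order of age. The adult stage had the lowest median in both, and the adult ratio of let-7d was below the adolescence ratio in 8 of 10 organs. These comparisons share the adult libraries.

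Scaling affected the count of organs for some members. let-7d was higher in aged deer in 9 of 9 organs without spleen under each of 5 scalings (TMM over 20, 18 or 40 libraries, DESeq2 size factors and total reads). let-7a-5p and let-7c were higher in 9 of 9 organs under TMM over 20 libraries, DESeq2 size factors and total reads, in 8 under TMM over 18 libraries and in 7 under TMM over 40 libraries. Over all miRNAs, no name had 1 sign in 10 of 10 organs under TMM, whereas miR-24-3p was higher in all 10 under total reads and miR-30f lower in all 10 under DESeq2 size factors. Without spleen and under TMM over 20 libraries, 3 of 108 had 1 sign in 9 of 9 organs (2.78%), namely let-7a-5p, let-7c and let-7d. With the scaling set over the 18 libraries without spleen there were 5 of 107 (4.67%), which were let-7d on the higher side and miR-30f, miR-342, miR-423-5p and miR-7 on the lower side. DESeq2 size factors gave 7 of 108, 3 higher and 4 lower, total reads gave 4 of 108, all higher, and TMM over 40 libraries gave let-7d alone of 126.

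Agreement of 9 of 10 organs was seen for 8 miRNAs on the higher side and 3 on the lower side, together 10.2% of the 108 tested. The 8 were let-7d, let-7a-5p, let-7c, miR-98, miR-151-5p, miR-2355-3p, miR-374a and miR-95, and the 3 were miR-30f, miR-145 and miR-423-5p. A further 10 miRNAs were higher and 18 lower in 8 of 10 organs, together 25.9% of the 108.

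miR-30f had the smallest p over 10 organs. It belongs to the miR-30 family, which is abundant in kidney epithelium, and kidney held its highest level at both stages. In adult libraries it ran from 43.1 RPM (skeletal muscle) through 14558 RPM to 110051 RPM (kidney), and in aged libraries from 42.0 RPM through 9031 RPM to 51383 RPM in the same organs. The aged library was the lower one in 9 of 10 pairs, and antler was the exception (636 and 946 RPM). The mean difference was -0.83 (SE 0.22, adjusted p = 0.273 by limma) with spleen and -0.69 (SE 0.12, adjusted p = 0.00559) without it, under the size limit of 1. The exact sign-flip permutation test over 10 pairs gave an unadjusted p = 0.00586, the same as for miR-151-5p. The largest difference was in spleen, at -2.29. Of the other 3 tested members of the family, miR-30b-5p gave 0.24 (SE 0.23) and miR-30c -0.30 (SE 0.18). miR-30a-5p gave 0.0027 (SE 0.46), was lower in 7 of 10 organs and gave -0.40 (SE 0.30) without spleen, which left 1 of 4 members positive.

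miR-145, a miRNA of smooth muscle, was the highest in spleen at both stages. It ran from 1047 RPM (skeletal muscle) through 43099 RPM to 198873 RPM in adult libraries and from 1300 RPM through 30438 RPM to 136607 RPM in aged libraries. It was lower in the aged library in 9 of 10 organs, from -0.05 in antler to -1.78 in brain, with 0.07 in heart. In lung the difference was under 0.01 in size. The mean was -0.73 (SE 0.22, adjusted p = 0.306 by limma), and -0.76 (SE 0.20, adjusted p = 0.0496) without spleen. In brain the level went from 25926 to 7832 RPM and in adrenal from 78643 to 30037 RPM. Under total reads it was lower in 7 of 10 organs.

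miR-1 showed what 1 library can do to a mean. In 9 organs without spleen it was lower in aged deer by 0.75 (SE 0.19, adjusted p = 0.0493 by limma), and lower in 8 of these 9 organs. It took 928505 RPM of the adult and 910959 RPM of the aged skeletal muscle library. Heart had 316406 RPM in adult and 151290 RPM in aged deer, and testes, the exception, had 8895 and 13997 RPM. In spleen it went from 1782 to 52057 RPM, a log2 difference of 4.70, and the mean over 10 organs was -0.18 (SE 0.48). miR-133a, the other abundant muscle miRNA, went the other way in heart, from 184634 to 252493 RPM, and differed by 0.02 (SE 0.31) over 10 organs.

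The ruminant family miR-2284 and miR-2285, which has many copies in cattle, had 6 tested names of 61 listed. All 6 were negative, with a median of -0.31 beside 0.00034 for all tested miRNAs, and none was called. Under total reads miR-2285o was positive, and under TMM over 40 libraries miR-2285f was positive. miR-2284x, the most abundant, ran from 231 RPM through 8885 RPM to 27211 RPM in adult and from 183 RPM through 7514 RPM to 19109 RPM in aged libraries. It was lower in 8 of 10 organs, with a mean of -0.46 (SE 0.17, adjusted p = 0.320 by limma), and -0.56 (adjusted p = 0.0496) without spleen. miR-2284y and miR-2285u shared nearly all reads, so the 6 names are not 6 independent miRNAs.

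The remaining miRNAs of smallest p did not pass the test with or without spleen. On the higher side were miR-374b (0.72, SE 0.25, 7 of 10 organs), miR-24-3p (0.45, SE 0.19, 8 of 10) and miR-151-5p (0.29, SE 0.13, 9 of 10), the last of which lies in an intron of PTK2. miR-24-3p was higher in 10 of 10 organs under total reads, where the median of all miRNAs was 0.16 higher. miR-196a, encoded in the Hox clusters and highest in kidney in unscaled RPM at 723 and 953, differed by 0.68 (SE 0.32). miR-22-3p (0.32, SE 0.15) and miR-3600 shared nearly all of their reads. miR-2355-3p (0.75, SE 0.37) rested on levels under 60 RPM, and its largest difference, 3.19 in testes, came from 0 adult reads and 1 aged read. miR-135a (0.95, SE 0.47), a miRNA of brain, rested on a spleen value of 5.03 from 2 and 51 reads, and gave 0.48 (SE 0.32) without spleen.

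On the lower side miR-423-5p had the largest mean, at -1.30 (SE 0.47, adjusted p = 0.320 by limma). It was lower in 9 of 10 organs, but the difference of -5.65 in testes came from 13 adult and 0 aged reads in the 2 shallowest libraries. Outside testes its differences ran from -1.51 to 0.73. miR-574 (-0.56, SE 0.21) and miR-197 (-0.60, SE 0.27) were lower in 8 and 7 organs. miR-2898 (-0.57, SE 0.27), miR-378 (-0.37, SE 0.18), miR-1343-3p (-0.65, SE 0.32) and miR-4286 (-0.63, SE 0.33) were each lower in 8 of 10 organs. Of these, miR-378, which lies in an intron of PPARGC1B, was the most abundant, with 153214 RPM in adult and 203254 RPM in aged heart, where it was one of 2 organs on the higher side.

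**Figure D3:**
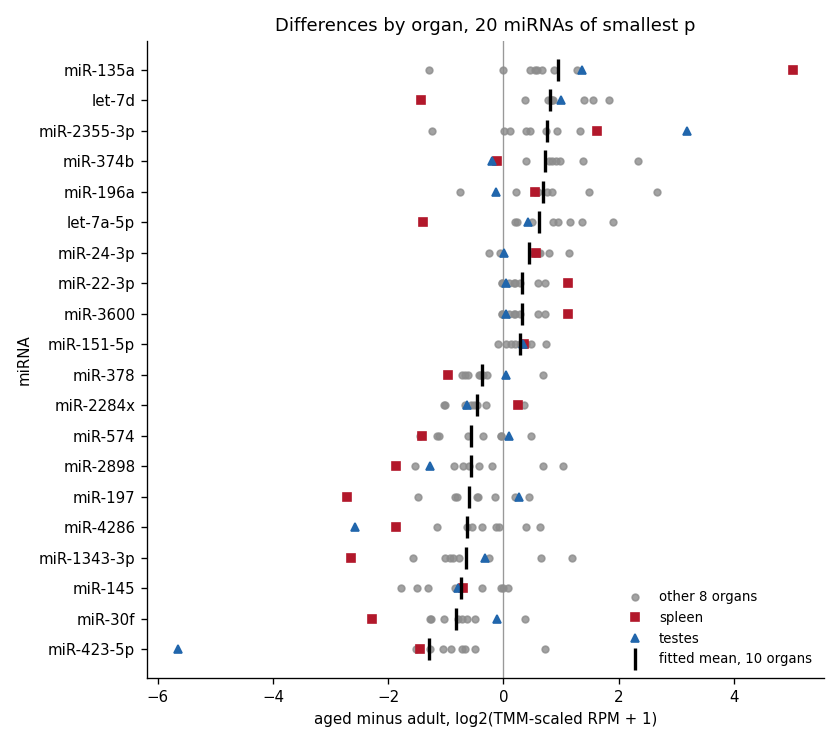
Aged minus adult difference of log2(TMM-scaled RPM + 1) on the horizontal axis for the 10 miRNAs of smallest p in each direction, 1 point for each organ, with spleen as red squares, testes as blue triangles and the fitted mean as a black bar. Spleen lies at -1.43 for let-7d and 5.03 for miR-135a, and testes at -5.65 for miR-423-5p.

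Other groups of miRNAs showed no call in either direction. The 4 tested of 11 names linked to inflammation and ageing (miR-24-3p, miR-22-3p, miR-126-3p and miR-22-5p) were positive, with a median of 0.32, beside 54 of all 108. Without spleen 3 of 4 were positive, with a median of 0.17, beside 54 of all 107. miR-22-5p (0.07, SE 0.29) was lower in 6 of 10 organs, and gave -0.21 (SE 0.17) without spleen. The imprinted DLK1-DIO3 cluster had 7 of 25 names tested, of which 2 were positive and 5 negative. miR-431, its member of largest difference, gave 0.46 (SE 0.39). miR-196a and miR-196b of the Hox clusters were both positive. The 3 tested names from miR-2880 to miR-2904 were negative, but miR-2904 was at -0.00093 and positive under every other scaling. Single tested members were miR-29a (0.31, SE 0.40), miR-17-5p (0.37, SE 0.24), miR-424-5p (0.71, SE 0.37) and miR-152 (0.64, SE 0.34), the last sharing every read with miR-2957. No member of the miR-34 and miR-449, miR-15 and miR-16 or miR-200 families reached the minimum for a test.

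Markers of cell types were looked at in the same way, and none was called. miR-142-5p of white blood cells gave 0.59 (SE 0.81) with spleen and -0.35 (SE 0.48) without it. miR-150 of lymphocytes gave -0.08 (SE 0.44) with spleen and 0.26 (SE 0.30) without it, miR-486 of red blood cells -0.23 (SE 0.25) and miR-126-3p of endothelium 0.32 (SE 0.41). miR-7 of endocrine cells gave -0.13 (SE 0.43), and -0.63 (SE 0.19, adjusted p = 0.0689) without spleen. miR-192, with miR-215 of the same seed at 0.60 (SE 0.41), gave -0.07 (SE 0.37), and -0.48 (SE 0.25) without spleen. miR-124a of neurons (-0.44, SE 0.61), miR-133b of muscle (0.32, SE 0.30), miR-199c of mesenchyme (0.38, SE 0.24) and miR-140 of cartilage (-0.01, SE 0.27) were all within 2 SE of 0. For muscle and mesenchyme these were the members of largest difference. Of the other muscle markers, miR-133c gave 0.31, miR-133a 0.02 and miR-1 -0.18, or -0.75 for miR-1 without spleen. Of the other mesenchymal markers, miR-214 gave -0.28, miR-199a-5p 0.12 and miR-199a-3p 0.01. Without spleen 2 mesenchymal markers were positive and 2 negative. In brain miR-124a differed by 0.16 (25537 and 34225 reads), and it was higher in 6 organs and lower in 3. Its lowest values were in skeletal muscle (-5.54, from 11 and 0 reads) and heart (-2.77, from 6 and 0 reads).

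Within single organs there was 1 library on each side, so these counts have no replicate check and no test of the stages. A miRNA was counted when its scaled level differed by more than 2-fold and it had at least 10 reads in 1 of the 2 libraries. In spleen 68 of 102 miRNAs were past 2-fold (66.7%), 38 higher and 30 lower in the aged library. In the other organs the share was 20% in adrenal (21 of 105), 30.7% in antler (31 of 101), 28.8% in brain (30 of 104), 28.3% in heart (26 of 92) and 21.6% in kidney (22 of 102). It was 19.1% in lung (18 of 94), 20% in liver (19 of 95), 20.2% in skeletal muscle (17 of 84) and 17.2% in testes (11 of 64). Brain had 9 higher and 21 lower, while antler had 24 higher and 7 lower and heart 19 higher and 7 lower. Scaling moved the count to 32 in lung under total reads and to 26 in skeletal muscle under DESeq2 size factors. The random sampling model of DEGseq compares the reads of 2 libraries. It was run on total reads without TMM scaling, over all names with a read in the pair. At an adjusted p under 0.01 and an absolute log2 difference over 1, that model gave 72 miRNAs in spleen and 6 to 24 in the other organs. Scaling, minimum of reads and limits thus differ from those of the counts above.

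**Figure D4:**
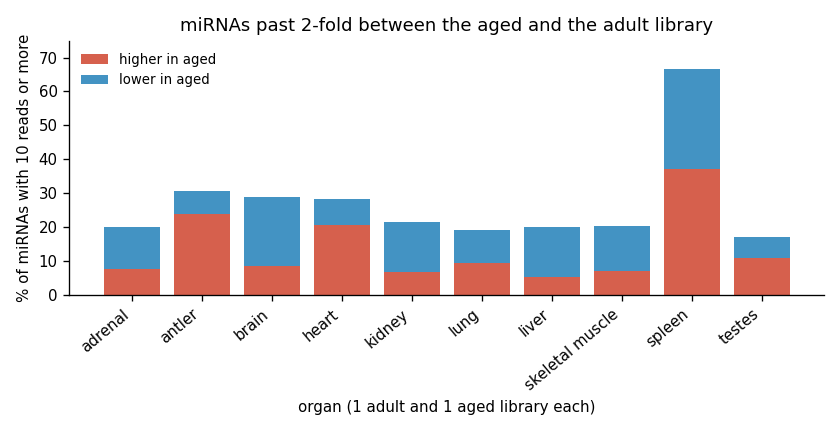
Share of miRNAs (%, vertical axis) more than 2-fold higher (red) or lower (blue) in the aged than in the adult library of each organ, among those with at least 10 reads in 1 of the 2 libraries. Spleen reaches 66.7%, and the other 9 organs lie between 17.2% and 30.7%.

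The largest difference in each organ named a different miRNA in most organs. Among miRNAs with at least 100 reads in 1 library and 10 in the other, the largest on the higher side was miR-26a in antler, from 2984 to 23086 reads, or 6.27-fold with a 95% counting interval of 2.59 to 2.70 on the log2 scale. In liver it was miR-490, encoded in the CHRM2 gene, from 61 to 698 reads or 5.76-fold. In heart it was miR-2887, from 51 to 145 reads or 5.78-fold, and in testes miR-133a, from 191 to 299 reads or 3.35-fold. let-7d led in brain, from 194 to 610 reads or 2.63-fold.

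In kidney miR-199c led the higher side at 2.17-fold, in adrenal miR-339a at 1.98-fold and in skeletal muscle miR-339b at 1.83-fold, the last 2 under the limit of 2-fold. miR-2904 was the largest on the higher side in lung, from 19 to 229 reads (6.28-fold), and the largest on the lower side in kidney, from 168 to 49 reads (10.1-fold), and in adrenal, from 123 to 47 reads (4.45-fold). Over 10 organs it was higher in 5 and lower in 5. On the lower side, lung had miR-26c (4.02-fold, sharing nearly all reads with miR-26a), brain miR-342 (3.71-fold), heart miR-192 (3.62-fold) and liver miR-486 (3.57-fold). Skeletal muscle and testes both had miR-2898 (2.92-fold and 2.42-fold), and antler had miR-133a (2.20-fold). miR-26a was lower in 8 of 10 organs, antler and spleen being the others.

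In spleen the leading miRNAs were of another size. miR-142-5p, a miRNA of blood cells, had 6 reads in the adult library and 1190 in the aged library, or 6.62 and 2849 RPM. The younger spleens had 57.6 RPM (juvenile) and 104 RPM (adolescence). The aged value was thus above the other 3, and the adult value below them. miR-374a went from 14 to 295 reads, 40.8-fold with a counting interval of 4.58 to 6.24 on the log2 scale.

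miR-26a took 11966 RPM in adult and 243240 RPM in aged spleen, and miR-7 996 and 20109 RPM. In the opposite direction, miR-150 of lymphocytes went from 242 to 13 reads (9.61-fold, 267 and 31.1 RPM) and let-7b from 288275 to 51561 RPM. The blood cell markers miR-142-5p and miR-150 thus moved in opposite directions. Among the others, miR-142-3p had 0 adult and 20 aged reads, miR-451 had 0 and 2, and miR-486 differed by 0.26. In aged deer, miR-142-5p was higher in spleen than in the other 9 organs, while 4 aged organs had more miR-150.

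The nearest library to the aged spleen was the adolescence lung (r = 0.952), and the adult spleen was nearest to the adolescence spleen (r = 0.980). In turn, the library nearest to the adolescence lung was the aged spleen, not another lung. The adolescence lung had 325107 RPM of miR-26a, 14563 RPM of miR-7, 13.8 RPM of miR-150 and 78892 RPM of let-7b. Some other miRNAs of the aged spleen lay nearer to the younger spleens than to that lung library. miR-145 was 136607 RPM, within the 126647 to 198873 RPM of the younger spleens, against 32894 RPM in the adolescence lung. miR-490 was 57.5 RPM, above the younger spleens (27.1 to 48.6) and below the lung (203). miR-1468 was 4.79 RPM, from only 2 reads, below both the younger spleens (7.86 to 8.83) and the lung (30.8). The aged spleen held 0.461 times the reads of the adult spleen. The part of tissue composition or of the library in these differences was not tested.

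**Figure D5:**
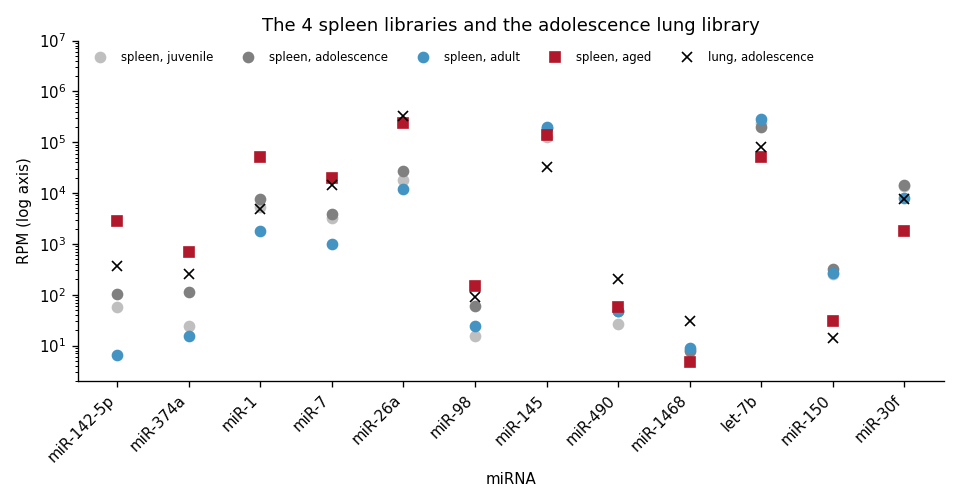
RPM (log axis) of 12 miRNAs in the juvenile, adolescence, adult and aged spleen libraries and in the adolescence lung library (crosses), 1 library a point. The aged spleen (red squares) is at 2849 RPM for miR-142-5p and 52057 RPM for miR-1, above the other 3 spleens, and within their range for miR-145.

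The step from adult to aged was also set beside the earlier steps, in 1 model of organ and stage over 40 libraries and 126 miRNAs. The median absolute log2 difference within an organ between adult and aged was 0.51 to 0.92 in 9 organs and 1.52 in spleen. From adolescence to adult it was 0.48 to 1.36, with 0.73 in spleen. From juvenile to adolescence it was 0.40 (antler) to 2.28 (brain), with 0.51 in spleen. At an adjusted p under 0.05 by limma there were 4 miRNAs from juvenile to adolescence, 3 from adolescence to adult and 0 from adult to aged, and 15, 29 and 7 at an unadjusted p under 0.05. Without spleen the 3 steps gave 4, 8 and 1 of 119 at an adjusted p under 0.05. The steps share libraries, and their difference was not tested.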

How the data were processed

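Small RNA reads of 10 organs at 2 stages (20 libraries, each RNA of 3 deer) were analysed. The deposited values are RPM, although the file headers call them tpm: the authors removed adapters, set other RNA classes aside, matched reads to miRBase and miRDeep predictions, and divided by all miRNA reads of the library. Processing notes name CASAVA, bcl2fastq 1.8.4 and Bowtie. All 7982 listed values of the series were whole multiples of 1 read within 0.01, which recovered the reads. The antler reads named miR-148c were added to miR-2957. No miRNA sequences were used here.

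RPM was scaled by TMM (edgeR 4.0.16), and log2(RPM + 1) was fitted with limma 3.58.1 (trend, R 4.3.3), with organ as the block and Benjamini-Hochberg adjustment. Differences are on that scale, and those of low miRNAs are imprecise. The added 1 shrinks them, but 0 against few reads gave large values, such as 3.19 for miR-2355-3p in testes (0 and 1 reads). Named miRNAs were the 10 of smallest p in each direction, the member of largest difference in each list, and the largest difference on each side in each organ (at least 100 reads in 1 library and 10 in the other). Members and lists were chosen with earlier results of these data known. Pairs were tested by 1024 exact sign flips (smallest p = 0.00195), with no adjustment for the number of miRNAs. Intervals (95%, Clopper-Pearson for folds, normal on the log scale for ratios) cover counting error only. DESeq2 1.42.0, the sampling model of DEGseq, scipy 1.17.1 and other settings were alternatives. The fit was tested on simulated data.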

Additional observations from a re-analysis of the deposited data

Results flagged for a closer look

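Among 26 reported sets of 10 organ differences, 9 had 1 organ far from the others (a gap to the nearest organ above Dixon's 95% limit of the range). Chance flags about 1 in 20 independent sets. These sets share libraries and were partly chosen with earlier results known, so that rate is no benchmark for 9 of 26. Spleen was the outlying organ for let-7d (-1.43), let-7a-5p (-1.39), let-7b (-2.65), let-7c (-1.79), miR-135a (5.03) and miR-1 (4.70), all as aged minus adult on the log2 scale. Testes was the outlying organ for miR-423-5p (-5.65, from 13 and 0 reads) and miR-98 (-4.79, from 7 and 0 reads). The median absolute log2 difference over 108 miRNAs was an outlier in spleen (1.50). Over all 108 tested miRNAs, 23 had an outlying organ, which was spleen in 17, testes in 5 and adrenal in 1.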

How the results depend on the processing

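With spleen, 0 miRNAs were called under each of the other 9 organ omissions and under every other fit, scaling, minimum and name setting, and 1 without spleen. Without spleen the 1 call (let-7d) became 2 under total reads, 6 at an adjusted p under 0.05 with no size limit, and 0 with 10 RPM in place of 1, no minimum of reads, at least 50 reads in 4 libraries or no organ term. There let-7d gave 0.97 (adjusted p = 0.00744 by limma), 1.05 (0.0475), 0.97 (0.000471) and 1.02 (0.992), so that with 10 RPM and with at least 50 reads the call fell on the size limit alone. It was 0 (0 to 0) when any 1 further organ was left out, an alternative chosen after seeing the data. miRNAs with 1 sign in every organ, 0 as reported, were 1 under total reads, DESeq2 size factors or at least 50 reads, 2 with no minimum, 5 without spleen and 0 to 3 when another organ was left out. miRNAs past 2-fold within an organ, 263 summed over organs, were 160 with at least 50 reads in 1 library. The median difference moved by less than the spread between organs in all settings.

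Small differences turned sign. Under total reads these were miR-124a (0.18), miR-7 (0.059), miR-192 (0.12), miR-140 (0.15) and let-7b (0.056), relative to a median of 0.16. With miR-1 left out of the totals they were miR-7 (0.0036), miR-192 (0.0665), miR-140 (0.13) and let-7b (0.00027), and over 40 libraries miR-7 (0.013), miR-192 (0.076), miR-140 (0.14) and let-7b (0.0098). miR-140 was 0.010 under DESeq2 size factors and 0.0258 with names merged, and miR-98 was -0.0166 with at least 50 reads. Without spleen, miR-142-5p was -0.35, miR-140 0.0102, let-7b 0.12 and miR-98 -0.20, while miR-192 kept its sign at -0.48. With spleen left out, miR-98 turned to 0.35 with edgeR, 0.44 with DESeq2 and 0.0665 with 10 RPM. Leaving out 1 organ other than spleen gave ranges of -0.0524 to 0.50 for miR-29a, -0.65 to 0.0613 for miR-124a, -0.20 to 0.14 for miR-192, -0.15 to 0.0739 for miR-140 and -0.0893 to 0.66 for miR-98. With spleen out as well they were -0.0598 to 0.21 for let-7b and -0.37 to 0.47 for miR-98. The cause was not tested.

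The organ term is the pairing of libraries, and without that replicate block 1 miRNA had an unadjusted p under 0.05, in place of 11. Depth limits low miRNAs, since 1 read is 23.9 RPM in the shallowest library (aged testes, 41866 reads).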
